A study of Mus musculus with 2 samples.

Results

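The genes described here are 35 markers and regulators of blood vessel and lymphatic endothelium, measured in heart tissue from a single animal, a female C57BL/6J adult 10 weeks old. They were chosen by symbol, and all 35 were found among the 43346 Ensembl genes of the deposited tables. Poly(A) RNA of this heart was sequenced in 2 libraries of the same biological replicate, called replicate 2 and replicate 1 here after their technical replicate numbers, and replicate 2 was made after the first publication of the data, per the labels. The libraries share the animal, the strain, the tissue and the extraction kit, and no treatment or mutation is given, so there is no group to compare and no p-value is given. A difference between the libraries, given as replicate 2 over replicate 1, compares those libraries only, and nothing here extends to other mice.

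Endothelial cells line every vessel of the heart. Their contacts are held by the cadherin Cdh5 and by Pecam1, their quiescence is tuned by the TIE receptors, and their gene programme is run by ETS, SOX F and helix-loop-helix transcription factors. Lymphatic endothelium is specified by Prox1 and drains fluid from the muscle. Cardiac muscle is dense in capillaries, so genes of these cells are readily seen in RNA of whole heart.

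The libraries held 19685821 counts in replicate 2 and 22775991 counts in replicate 1. Nuclear genes, leaving out those that copy mitochondrial sequence, took 12654724 counts (64.3%) in replicate 2 and 5028154 (22.1%) in replicate 1. Levels are therefore given as nuclear TPM, which is TPM (a length-corrected measure of transcript abundance) rescaled so that those nuclear genes alone make up the fixed total of a library. The mean GC content of transcripts, weighted by nuclear counts, was 50.5% in replicate 2 and 45.0% in replicate 1. This difference touches most values below.

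The endothelial and lymphatic genes were spread over a wide range of levels, and all but Lyl1 had counts in both libraries. All 35 had at least 1 nuclear TPM in replicate 2 and 32 did in replicate 1. Among all 43298 nuclear genes, 13426 and 12144 did in replicates 2 and 1. In replicate 1, 26 of the 35 members had at least 20 counts. The summed level of the 35 members was 2441 nuclear TPM in replicate 2 and 1286 in replicate 1 (1864 ± 817 on average, SD, n = 2 libraries). That was 0.244% and 0.129% of all nuclear TPM in replicates 2 and 1. Both libraries come from the same heart, so their difference is not read as one in cells. A level in RNA of whole tissue does not separate the number of endothelial cells from their RNA per cell. The median member had 38.4 nuclear TPM in replicate 2 and 19.3 in replicate 1, against 15.9 and 12.1 in replicates 2 and 1 for the median of 13158 nuclear genes with at least 20 counts over both libraries. As deposited, before rescaling, the members summed to 954 TPM in replicate 2 and 92.9 TPM in replicate 1, and 35 and 21 of them reached 1 TPM in replicates 2 and 1.

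**Figure D1:**
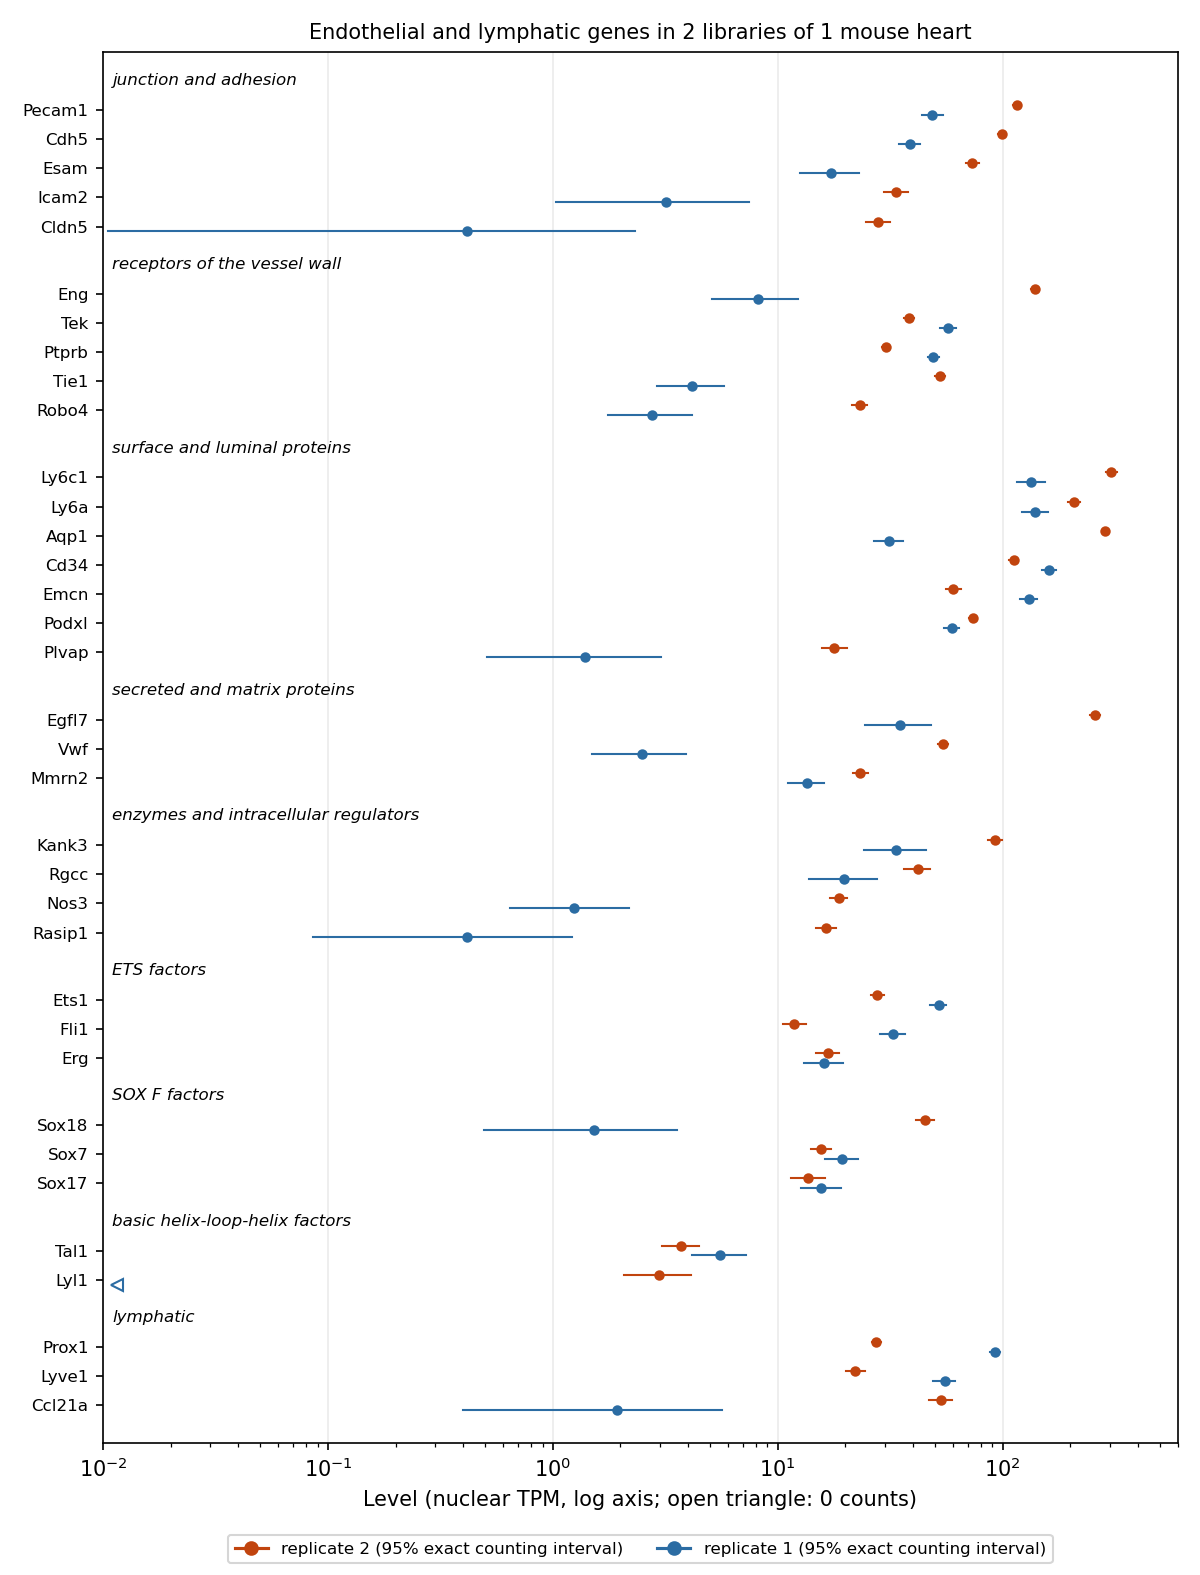
Level of each of the 35 genes (nuclear TPM, log axis) in replicate 2 (orange, upper point) and replicate 1 (blue, lower point), grouped by role and ordered within a group by mean level. Bars are 95% exact intervals for counting error, and the open triangle marks Lyl1, which had 0 counts in replicate 1. Cldn5, Eng, Rasip1 and Sox18 lie far apart in the libraries, and Erg, Sox7 and Sox17 lie close together.

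The members of highest level were the same in the libraries only in part. Ly6c1, Aqp1, Egfl7, Ly6a and Eng had the 5 highest levels in replicate 2, and Cd34, Ly6a, Ly6c1, Emcn and Prox1 had them in replicate 1. The 10 highest of each library shared 4 genes, and the Spearman rho between the levels in the libraries was 0.48 over the 35 members, against 0.61 over the 13158 genes. This is a description across genes, which are not independent replicates.

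Scaled by TMM, a method that matches libraries on the bulk of their genes, the members had a median log2 ratio of 1.51 (middle 50% from -0.32 to 3.97), against 0.22 (-1.11 to 2.36) for all genes tested. Of the 35, 21 (60.0%) were at least 2-fold higher in replicate 2 and 4 were at least 2-fold lower, and the other 10 lay within 2-fold. Among all genes tested, 39.1% were at least 2-fold higher and 27.2% at least 2-fold lower. The 4 lower members were Emcn, Fli1, Prox1 and Lyve1, none of which was 2-fold lower once the GC trend described next was taken out. The 95% exact interval of the ratio, which covers counting error only, lay above 1 for 23 members and below 1 for 9. The same count was not made over all genes tested, so nothing particular to the members is read from it.

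Transcript GC content moved with the library ratio of the members. Their GC content had a median of 53.5% (from 44.2% for Emcn to 63.6% for Rasip1), against 50.1% for all genes tested that had a value, and the Spearman rho between GC content and log2 ratio was 0.84 over the 35 members and 0.90 over 13131 genes. Of 9 members under 50% GC, 0 were at least 2-fold higher and 4 were lower, with a median log2 ratio of -0.76 against -1.09 for all genes of that range. Of 13 members from 50% to 55% GC, 9 were higher, with a median of 1.28 against 1.25 for all genes there. Of 13 members at 55% GC or more, 12 were higher, with a median of 4.72 against 3.76. The exception was Sox17, at -0.96. The part of GC content in any one difference was not tested, and with the trend of all genes taken out in 50 GC bins the median of the members was -0.003, 8 were higher and 4 lower, against 14.8% and 13.0% of all genes. Of these 8 higher members 7 were among the 21 named higher before, while the 4 lower were other genes than before, namely Plvap, Erg, Sox17 and Tal1. The GC value of Erg leaves out its transcript of most counts, which has no sequence in the annotation used. That transcript had 211 of 299 counts in replicate 2 and 95.3 of 105 in replicate 1.

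**Figure D2:**
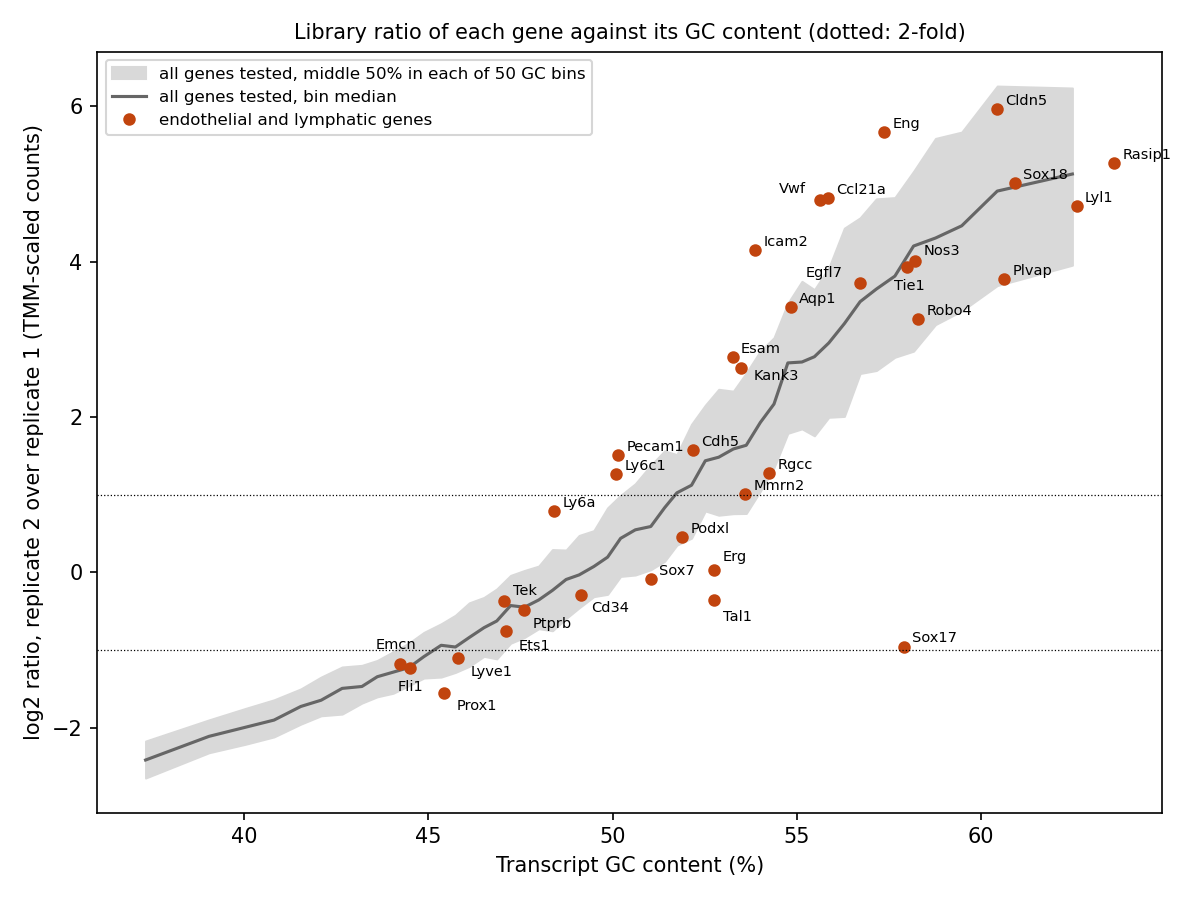
Log2 ratio of TMM-scaled counts, replicate 2 over replicate 1, against transcript GC content (%) for the 35 genes (orange points). The grey line and band are the median and middle 50% of all genes tested in each of 50 GC bins, and the dotted lines mark 2-fold. Members under 50% GC lie at or below 0.79 and members at 55% or more lie above 3.2, except Sox17 at -0.96.

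The base composition can be read from the start of the coding sequence of the member with the highest ratio, Cldn5, and of the member with the lowest GC content, Emcn, which are shown to give this contrast in letters. Both are the first 90 coding bases in GENCODE release M21 on GRCm38, with G and C in capitals. The Cldn5 stretch lies in exon 1 (chr16:18776996-18777085, plus strand) and has 54 G or C bases (60.0%). The Emcn stretch lies in exons 1 and 2 (between 137341240 and 137372744 of chromosome 3, plus strand) and has 43 (47.8%).
Cldn5: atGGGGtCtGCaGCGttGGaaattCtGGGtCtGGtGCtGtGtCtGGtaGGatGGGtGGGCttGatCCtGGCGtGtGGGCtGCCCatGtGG
Emcn: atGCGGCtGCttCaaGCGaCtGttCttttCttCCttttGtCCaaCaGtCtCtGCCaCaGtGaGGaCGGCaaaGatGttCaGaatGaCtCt

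Over 1 coding transcript a member, the one of highest level in replicate 2 among those with an M21 sequence, the Spearman rho with the library ratio was 0.51 for the GC content of the coding part and 0.66 for that of the rest of the transcript. Vwf and Erg each have a well-covered deposited transcript with no M21 sequence, so theirs is not the leading one, and without these genes, a step added after the data were seen, the rho was 0.52 for the coding part and 0.67 for the rest. The coding part of these transcripts had from 45.2% to 66.5% GC and the rest had from 38.2% to 67.5%. Both upper limits are those of Sox17-204, which had 17.1 counts in replicate 2 and 0 in replicate 1. Kank3 entered with Kank3-206, which had 110 counts in replicate 2, against 512 for Kank3-201. In 10 members the coding part exceeded the rest by over 10 percentage points, and 6 of these had a log2 ratio above 0 and 4 below. Sox18, with a log2 ratio of 5.01, had 66.4% GC in its coding part and 48.3% outside it, and Tal1, with a log2 ratio of -0.36, had 66.5% and 48.6%. Nos3, with a ratio of 4.01, had 60.0% and 45.8%, and Fli1, with a ratio of -1.23, had 53.7% and 38.2%. A wide gap thus stood beside ratios of either sign.

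The 5 junction genes were all at least 2-fold higher in replicate 2, against 39.1% of all genes. With the GC trend removed 4 of the 5 were, against 14.8% of all genes. Their log2 ratios were then 2.22 for Icam2, 1.18 for Esam, 1.07 for Pecam1, 1.06 for Cldn5 and 0.46 for Cdh5, where 1 is 2-fold. Of the 5, Icam2 and Cldn5 rest on few counts in replicate 1. Pecam1, an adhesion protein of endothelial borders (chromosome 11, 106654217 to 106750628, minus strand, GRCm38), had 115 nuclear TPM (2655 counts) in replicate 2 and 48.8 nuclear TPM (336 counts) in replicate 1. Cdh5, the cadherin of endothelial adherens junctions (chromosome 8, 104101625 to 104144511, plus strand), had 99.2 nuclear TPM (2850 counts) in replicate 2 and 38.7 (344 counts) in replicate 1. The TMM-scaled ratio was 2.85-fold (95% exact interval 2.55 to 3.20) for Pecam1 and 2.99-fold (2.67 to 3.35) for Cdh5. These markers thus kept nearly the same level relative to each other, at 1.16 Pecam1 per Cdh5 (95% exact interval 1.102 to 1.226, counts per effective length) in replicate 2 and 1.26 (1.08 to 1.47) in replicate 1.

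The other junction genes did not keep such a balance. Esam, an adhesion molecule of endothelium and platelets, had 73.4 nuclear TPM (861 counts) in replicate 2 and 17.2 (45 counts) in replicate 1. Icam2, a ligand of leucocyte integrins, had 33.6 nuclear TPM (270 counts) in replicate 2 and 3.19 (5 counts) in replicate 1. Cldn5, the claudin of endothelial tight junctions, had 28.1 nuclear TPM (260 counts) in replicate 2 and 0.42 (1 count) in replicate 1, a fitted log2 ratio of 5.97 and the highest of the 35 genes. Its ratio to Cdh5 was 0.283 (0.248 to 0.321) in replicate 2 and 0.0090 (0.0002 to 0.0505) in replicate 1, so Cdh5 was the higher of the pair in both libraries, by an amount that replicate 1 measures poorly with 1 count. Esam stood at 0.636 (0.588 to 0.687) of Pecam1 in replicate 2 and 0.352 (0.252 to 0.481) in replicate 1.

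The vessel wall receptors split into genes that were similar in the libraries and genes that were far apart. Tek (chromosome 4, 94739289 to 94874976, plus strand), the receptor of the angiopoietins, had 38.4 nuclear TPM (1259 counts) in replicate 2 and 57.2 (586 counts) in replicate 1. Tie1 (chromosome 4, 118471191 to 118490061, minus strand), its related co-receptor, had 52.8 nuclear TPM (1543 counts) in replicate 2 and 4.16 (36 counts) in replicate 1. Tie1 therefore stood above Tek in replicate 2 and far below it in replicate 1. Tek per Tie1 was 0.727 (95% exact interval 0.675 to 0.784) in replicate 2 and 13.9 (9.96 to 20.1) in replicate 1, which averages 1.47 ± 2.73 on the log2 scale (SD, n = 2 libraries). The GC content was 47.1% for Tek and 58.0% for Tie1.

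The closest match between the proteins of these receptors is shown next, because it holds the same residues in codons of different letters. In release M21 a run of 32 residues is identical, residues 1024 to 1055 of transcript Tek-203 and 1036 to 1067 of transcript Tie1-201, in the kinase part, and it is encoded in exons 20 and 21 of both genes (chr4:94864615-94865487, plus strand, and chr4:118472824-118472998, minus strand, introns removed). Capitals mark G or C at the last base of a codon.
Tek: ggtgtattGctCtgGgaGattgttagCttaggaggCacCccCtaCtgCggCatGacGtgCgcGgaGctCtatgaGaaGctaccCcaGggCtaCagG
Tie1: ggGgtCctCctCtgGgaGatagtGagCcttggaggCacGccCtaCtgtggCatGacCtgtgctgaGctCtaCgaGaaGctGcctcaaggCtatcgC
Of the 96 bases, 76 are identical and 20 differ, 17 of those at the last base of a codon. G or C ends 24 codons in Tek and 23 in Tie1, and the stretch has 58.3% GC in Tek and 60.4% in Tie1. The stretch is thus alike in GC content where the whole coding parts are not, at 48.8% for Tek-203 and 58.3% for Tie1-201.

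Eng and Robo4 resembled Tie1, and Ptprb resembled Tek. Eng, endoglin, a co-receptor for BMP9 and TGF-beta, had 139 nuclear TPM (3171 counts) in replicate 2 and 8.17 (22 counts) in replicate 1, a ratio of 50.9-fold (34.3 to 83.1). Its 3171 counts were the second highest of the members in replicate 2, after Aqp1. Ptprb, the phosphatase that acts on Tek, had 30.3 nuclear TPM (2685 counts) in replicate 2 and 49.3 (1352 counts) in replicate 1. Ptprb per Tek was 0.789 (0.737 to 0.844) in replicate 2 and 0.860 (0.780 to 0.949) in replicate 1. Robo4, a guidance-type receptor of vessel stability, had 23.2 nuclear TPM (625 counts) in replicate 2 and 2.77 (23 counts) in replicate 1. Eng was above Pecam1 in replicate 2, at 1.20 (1.14 to 1.27), and below it in replicate 1, at 0.169 (0.104 to 0.259). In replicate 1 the transcript Eng-203, of 258 nt, carried 65.05% of the abundance of Eng with 1 count, against 1.18% in replicate 2. The level of Eng and its ratio to Pecam1 in replicate 1 thus rest largely on that 1 count, which the interval does not cover.

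Genes of the luminal surface held the highest levels of the set, 1062 nuclear TPM in replicate 2 and 658 in replicate 1 over 7 genes. Ly6c1, a GPI-anchored Ly6 protein of capillary endothelium and some leucocytes, had 304 nuclear TPM (1299 counts) in replicate 2 and 135 (195 counts) in replicate 1. Ly6a, also known as Sca-1, had 209 (1049 counts) in replicate 2 and 140 (219 counts) in replicate 1. Aqp1, a water channel of endothelium and red cells, had 285 (5259 counts) in replicate 2 and 31.2 (178 counts) in replicate 1. Ly6c1 stood above Ly6a by 1.46 (1.34 to 1.58) in replicate 2, and in replicate 1 the ratio of 0.962 (0.789 to 1.17) did not separate them beyond counting error.

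The sialomucins, heavily glycosylated proteins of the luminal coat, were not alike in their library ratio: Cd34 and Podxl lay within 2-fold and Emcn was at least 2-fold lower in replicate 2. Cd34 had 112 nuclear TPM (1935 counts) in replicate 2 and 161 (854 counts) in replicate 1, where it was the highest of all 35. Podxl, podocalyxin, had 73.6 (2738 counts) in replicate 2 and 59.4 (722 counts) in replicate 1. Emcn, endomucin, a marker of capillaries and veins, had 60.4 (636 counts) in replicate 2 and 131 (518 counts) in replicate 1. Cd34 was above Podxl in both, by 1.52 (1.43 to 1.61) in replicate 2 and 2.71 (2.451 to 2.995) in replicate 1. Emcn was below Podxl in replicate 2, at 0.820 (0.751 to 0.894), and above it in replicate 1, at 2.20 (1.96 to 2.47). Podxl is also made by podocytes of the kidney, whose defining marker Nphs1 had 0 counts in both libraries.

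Plvap, which forms the diaphragms of fenestrae and caveolae, was low for a surface gene, at 17.9 nuclear TPM (247 counts) in replicate 2 and 1.39 (6 counts) in replicate 1. It overlaps Gtpbp3 on the opposite strand, which had 295 and 4 counts in replicates 2 and 1. The sources used here do not say if reads were assigned by strand, so those of overlapping genes cannot be told apart. The same holds for Eng with Fpgs (141 counts in replicate 2 and 2 in replicate 1), Egfl7 with Agpat2 (602 and 8), Kank3 with Rps28 (966 and 17) and Lyl1 with Nfix (2354 and 603). Ly6c1 is 97.6% identical to Ly6c2 over 822 bases, and 98.0% of the counts of that pair in replicate 2 and 95.1% in replicate 1 were assigned to Ly6c1.

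All 3 secreted genes were at least 2-fold higher in replicate 2, against 39.1% of all genes. With the GC trend removed 1 of them was, against 14.8% of all genes. This was Vwf, at a log2 ratio of 2.02, while Egfl7 was at 0.24 and Mmrn2 at -0.63. The GC value of Vwf leaves out a transcript with no M21 sequence, which had 973 of 1506 counts in replicate 2 and 5.45 of 19 in replicate 1. Egfl7, a secreted protein of sprouting vessels and the host of the microRNA Mir126a, had 259 nuclear TPM (1371 counts) in replicate 2 and 34.9 (37 counts) in replicate 1. Vwf, the clotting protein stored in endothelium and platelets, had 54.4 (1506 counts) in replicate 2 and 2.49 (19 counts) in replicate 1. Mmrn2, a matrix protein of vessels, had 23.3 (660 counts) in replicate 2 and 13.4 (118 counts) in replicate 1. Vwf, higher in larger vessels and veins, stood above Plvap by 3.04 (2.66 to 3.49) in replicate 2, and in replicate 1, with 19 and 6 counts, the ratio of 1.78 had an interval from 0.684 to 5.45. Platelets are a further source of Vwf: of 8 platelet markers 2 reached 1 nuclear TPM in both libraries, their sum was 49.2 nuclear TPM in replicate 2 and 31.4 in replicate 1, and Gp9 and Gp6 had 0 counts in both. Their part in the level of Vwf was not tested.

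The 4 enzymes and intracellular regulators were also all at least 2-fold higher in replicate 2, against 39.1% of all genes. With the GC trend removed 0 of them were, against 14.8% of all genes. Their log2 ratios were then 0.995 for Kank3, 0.14 for Rasip1, -0.20 for Nos3 and -0.89 for Rgcc. Kank3, a regulator of the cytoskeleton, had 92.5 nuclear TPM (712 counts) in replicate 2 and 33.7 (41 counts) in replicate 1. Rgcc, a cell cycle regulator, had 41.9 (231 counts) in replicate 2 and 19.8 (34 counts) in replicate 1. Nos3, the endothelial nitric oxide synthase, had 18.6 (556 counts) in replicate 2 and 1.25 (12 counts) in replicate 1. Rasip1, a Rap1 effector needed for vessel lumens, had 16.4 (374 counts) in replicate 2 and 0.42 (3 counts) in replicate 1. Nos3 and Rasip1 were thus well measured in replicate 2 and rested on few counts in replicate 1.

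The ETS factors were the only role group with a higher summed level in replicate 1 besides the lymphatic genes, with 56.3 nuclear TPM in replicate 2 and 100.4 in replicate 1. Ets1 had 27.8 nuclear TPM (962 counts) in replicate 2 and 52.0 (586 counts) in replicate 1. Fli1 had 11.9 (281 counts) in replicate 2 and 32.4 (238 counts) in replicate 1. Erg, the most endothelial of these factors, had 16.7 (299 counts) in replicate 2 and 16.1 (105 counts) in replicate 1, the smallest difference of all 35 genes. Ets1 was the highest in both libraries, at 2.34 times Fli1 (2.04 to 2.68) in replicate 2 and 1.60 times (1.37 to 1.87) in replicate 1. Ets1 stood at 1.66 times Erg (1.46 to 1.90) in replicate 2 and 3.24 times (2.63 to 4.02) in replicate 1. Fli1 was below Erg in replicate 2, at 0.711 (0.602 to 0.840), and above it in replicate 1, at 2.03 (1.60 to 2.57). Ets1 and Fli1 are also made by leucocytes, whose pan-marker Ptprc had 3.33 nuclear TPM (119 counts) in replicate 2 and 12.2 (144 counts) in replicate 1, and of 10 lymphocyte markers 1 reached 1 nuclear TPM in both. The part of such cells was not tested.

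Among the SOX F factors, which act redundantly in arterial and lymphatic development, Sox18 stood apart from its relatives. Sox18 had 45.3 nuclear TPM (491 counts) in replicate 2 and 1.52 (5 counts) in replicate 1. Sox7 had 15.6 (366 counts) in replicate 2 and 19.3 (140 counts) in replicate 1, and Sox17 had 13.7 (133 counts) in replicate 2 and 15.7 (93 counts) in replicate 1. Sox18 was therefore the highest of the 3 in replicate 2 and the lowest in replicate 1, with Sox7 at 0.343 of Sox18 (0.299 to 0.394) in replicate 2 and 12.9 (5.40 to 40.3) in replicate 1. Sox17 stood at 0.302 of Sox18 (0.248 to 0.367) in replicate 2 and 10.47 (4.33 to 33.0) in replicate 1. Sox17 per Sox7 was alike in the libraries, at 0.880 (0.716 to 1.08) in replicate 2 and 0.812 (0.618 to 1.06) in replicate 1, and neither interval excluded 1. In replicate 2 Sox17-203, of 406 nt, carried 20.4% of Sox17 with 4.63 counts, and Sox17-204 carried 25.3% with 17.1 counts, which the interval does not cover. By TMM-scaled counts the library ratio was 0.515-fold for Sox17 and 0.942-fold for Sox7. With the GC trend removed from replicate 1 the order of this pair differed between the libraries.

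The helix-loop-helix factors Tal1 and Lyl1, known from blood and endothelial progenitors, were the lowest of the set in replicate 2. Tal1 had 3.71 nuclear TPM (113 counts) in replicate 2 and 5.54 (52 counts) in replicate 1. Lyl1 had 2.97 (36 counts) in replicate 2 and 0 counts in replicate 1, where up to 3 counts, or 0.794 nuclear TPM, are allowed by a count of 0. Lyl1 was 4.33-fold higher in replicate 2 by TMM-scaled counts against that floor of 3 counts, leaving out counting error in replicate 2. The exact interval of its library ratio, which covers counting error in both libraries, had a lower limit of 3.35-fold. With the GC trend removed the log2 ratio of Lyl1 was -0.41. Tal1 was above Lyl1 in both libraries, by 1.26 (0.857 to 1.88) in replicate 2, where the interval includes 1.

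The lymphatic genes gave opposite orders. Prox1, the transcription factor of lymphatic identity that cardiomyocytes also make, had 27.5 nuclear TPM (1580 counts) in replicate 2 and 92.7 (1675 counts) in replicate 1, a ratio of 0.341 (0.318 to 0.365), the lowest of the 35. Lyve1, a hyaluronan receptor of lymphatics and of some resident macrophages, had 22.2 (405 counts) in replicate 2 and 55.3 (313 counts) in replicate 1. Ccl21a, the chemokine that lymphatics release to guide dendritic cells, had 53.2 (274 counts) in replicate 2 and 1.94 (3 counts) in replicate 1. Prox1 was above Lyve1 in both, by 1.24 (1.11 to 1.39) in replicate 2 and 1.68 (1.48 to 1.90) in replicate 1. Ccl21a was above Lyve1 in replicate 2, at 2.40 (2.05 to 2.81), and far below it in replicate 1, at 0.0339 (0.0070 to 0.1001).

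Markers of other cells that make Prox1 or Lyve1 were present. All 8 cardiomyocyte markers reached 1 nuclear TPM in both libraries and summed to 75113 nuclear TPM in replicate 2 and 14665 in replicate 1, and 9 of 10 macrophage markers did so, with sums of 519.9 and 261 in replicates 2 and 1, of which 6 were at least 2-fold higher in replicate 2 and 1 was lower. C1qa had 69.6 nuclear TPM in replicate 2 and 3.46 in replicate 1, and the lower one, Mrc1, had 13.7 and 72.3. Their part in the levels of Prox1 and Lyve1 was not tested. Ccl21a shares 99.3% to 99.5% identity with 4 other annotated genes, among them Gm21541 with 112 counts in replicate 2 and 0 in replicate 1. Summed over these 5 genes there were 394 counts in replicate 2, against 5.0 in replicate 1, so the sum over the copies was far apart in the libraries too.

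Of the 19 pairs of related genes, 11 had the same gene higher in both libraries and 8 did not. For each pair the GC content of the first gene minus that of the second was set beside the change of its log2 ratio, replicate 2 minus replicate 1. The Spearman rho of these signed differences was 0.86 over the 19 pairs, which share genes. A first gene richer in GC than the second thus mostly went with a higher pair ratio in replicate 2. Of 11 pairs that differ by over 5 percentage points of GC, 6 changed order. With the GC trend of all genes taken out of replicate 1, a step added after the data were seen, 12 pairs had the same order, but not the same ones: 6 pairs gained it, among them Tek and Tie1, and 5 lost it, among them Pecam1 and Cdh5.

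**Figure D3:**
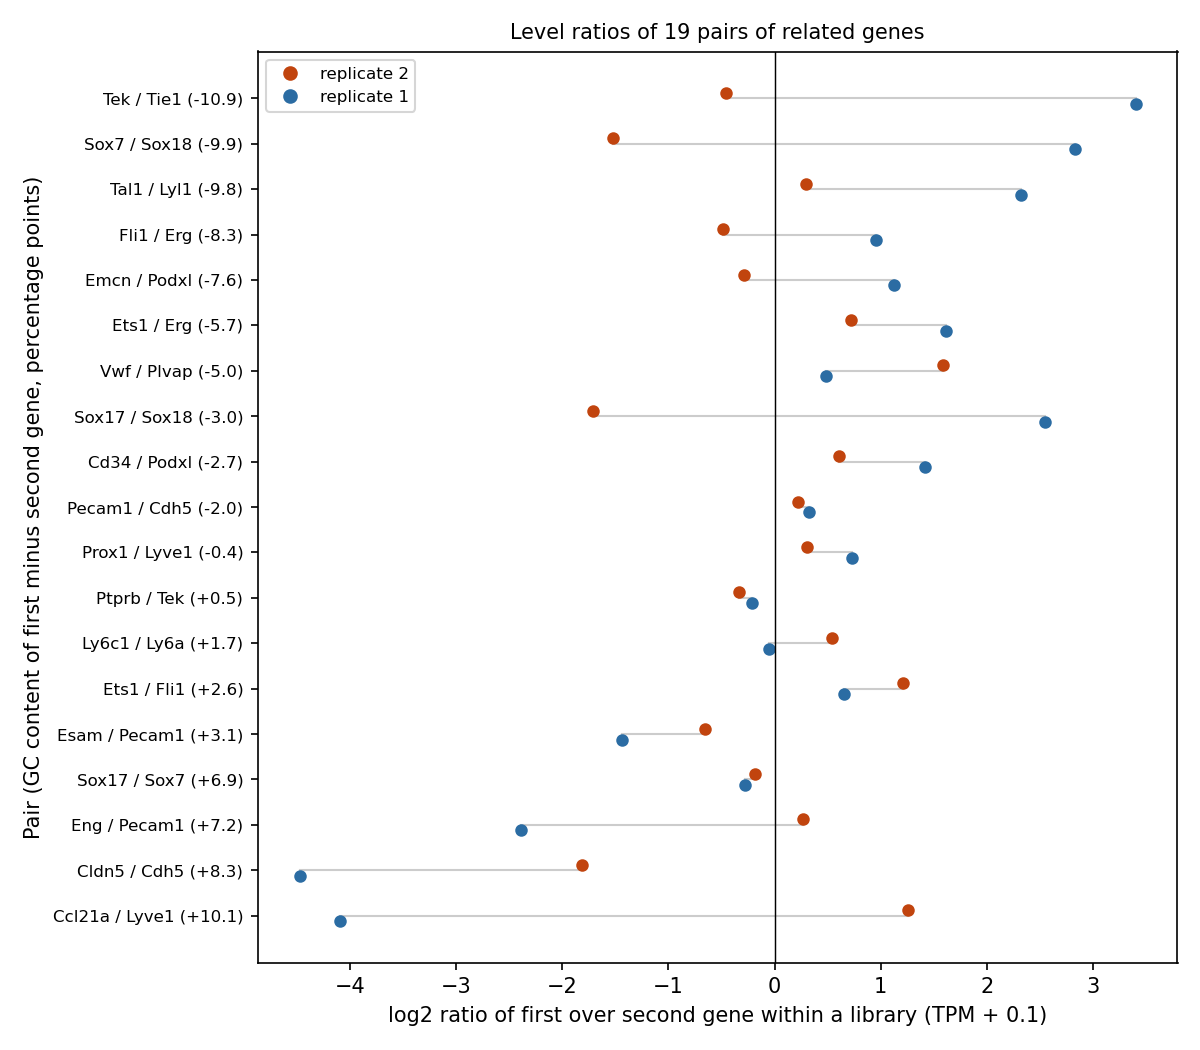
Log2 ratio of the first over the second gene of 19 pairs, from TPM with 0.1 added, in replicate 2 (orange, upper point) and replicate 1 (blue, lower point), with pairs ordered by their difference in GC content (in parentheses, percentage points). Pairs whose first gene has less GC, at the top, mostly have their replicate 1 point to the right, and Pecam1 with Cdh5 and Ptprb with Tek lie close together.

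Transcripts of the members also differed between the libraries, in the deposited isoform percentages. Of the 35 genes 13 have 1 annotated transcript, and of the other 22 the leading transcript was the same in both libraries for 15. By counts in place of percentages it was the same for 13. Some leads rest on hardly any counts in replicate 1, with 2 for Icam2-202 and 1 for Eng-203. No share over all genes is given, so nothing particular to the members is read from these numbers. Tek-203 carried 58.7% of Tek in replicate 2 and 15.6% in replicate 1, and Tek-202 carried 18.2% in replicate 2 and 82.5% in replicate 1. Both are protein coding, with 47.1% and 46.8% GC over their whole length. Tie1-201 carried 72.8% of Tie1 in replicate 2 and 0% in replicate 1, where all 36 counts fell to other transcripts and Tie1-203 led with 78.2%. By the deposited posterior means, Tie1-201 carried 72.0% in replicate 2 and 22.1% in replicate 1. Pecam1-202 led in replicate 2 with 41.3%, against 11.6% in replicate 1, and Pecam1-203 held 35.8% in replicate 2 and led in replicate 1 with 59.7%.

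In Kank3 and Sox17 the transcripts differ in composition. Kank3-201, of 2641 nt and 60.8% GC, had 512 counts in replicate 2 and 1 count in replicate 1, and Kank3-206, of 696 nt and 47.4% GC, had 110 and 40 counts in replicates 2 and 1. Sox17-201, of 3127 nt and 50.1% GC, had 68.0 counts in replicate 2, against 91.0 in replicate 1. It carried 22.3% of the gene in replicate 2 and 84.7% in replicate 1. Sox17-205, at 62.5% GC, had 21.1 and 1.00 counts. Sox17 was the member farthest from the trend of all genes, and its GC value of 57.9% is a mean over transcripts of which the one with most counts in both libraries lies at 50.1%. In 15 genes at least 2 transcripts had 20 counts or more over both libraries. The transcript of highest GC had a higher library ratio than that of lowest GC in 11 of them. Some of these transcripts hardly differ, as in Cd34 with a gap of 0.32 percentage points. Where the gap was at least 3 points, 5 of 7 genes had this order. No share over all genes is given, so nothing particular to the members is read from these counts. Emcn-201 (45.1% GC) carried 82.8% of Emcn in replicate 2 and 60.3% in replicate 1, and Emcn-202 (41.5% GC) carried 15.8% and 36.2%.

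**Figure D4:**
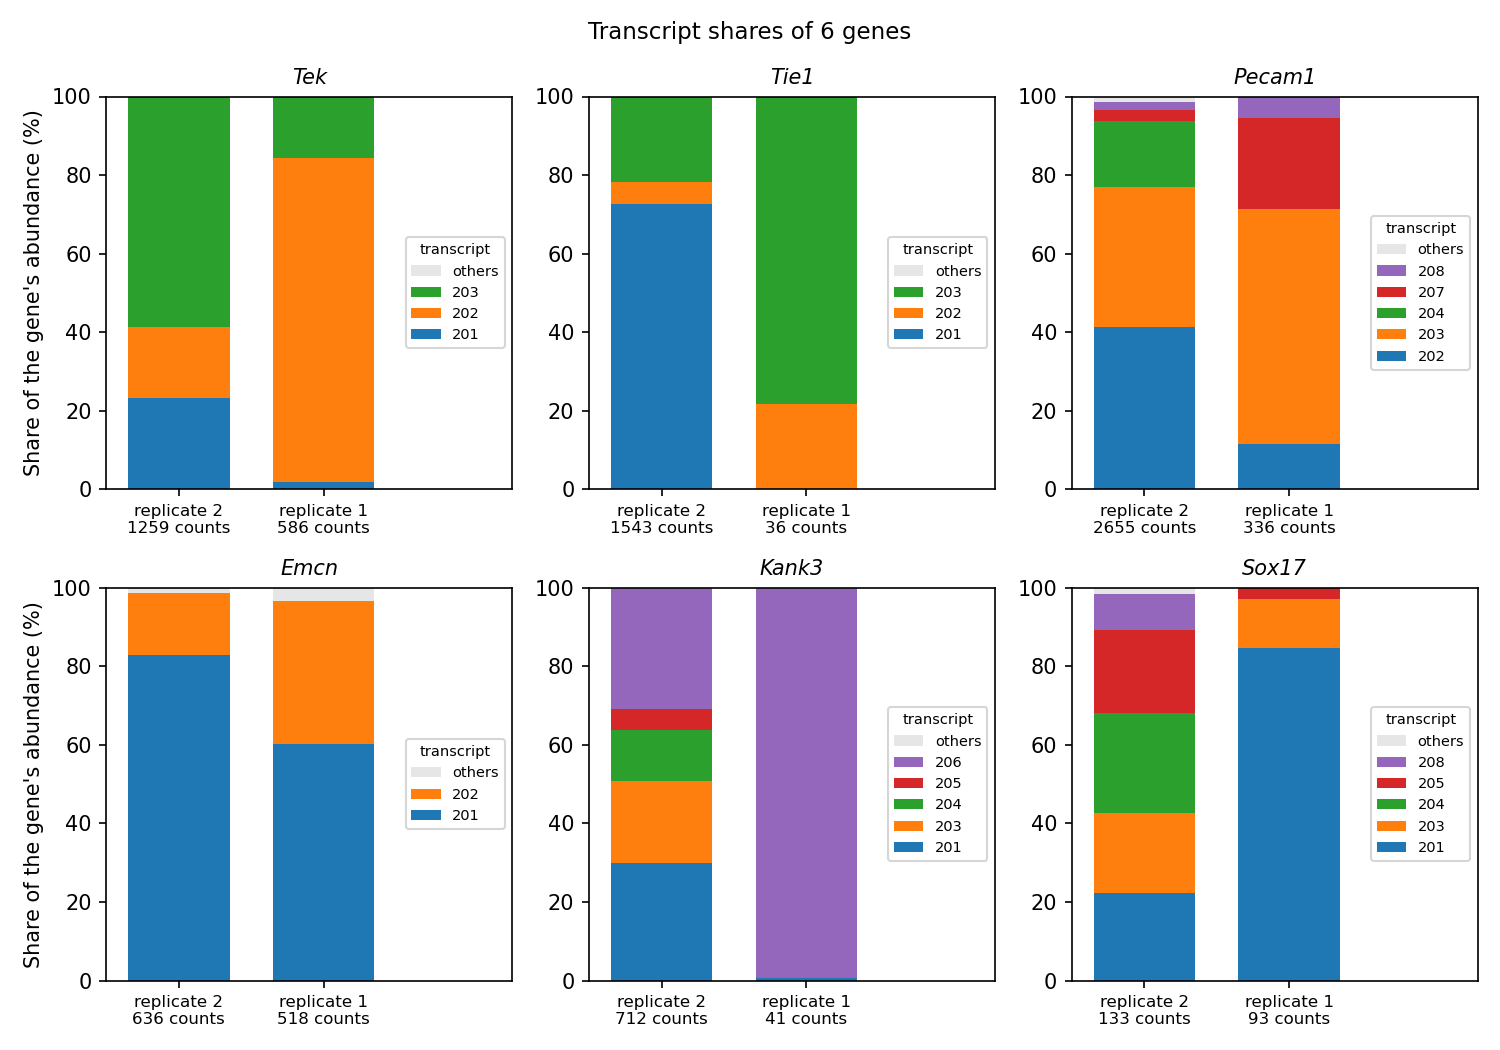
Share of the abundance of each gene (%) carried by its transcripts in replicate 2 (left bar) and replicate 1 (right bar) for Tek, Tie1, Pecam1, Emcn, Kank3 and Sox17, with the counts of the gene under each bar. The leading transcript differs in the bars of Tek, Tie1, Pecam1 and Sox17 and is the same in those of Emcn and Kank3.

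Promoter sequence was looked at for motifs of ETS and SOX factors, which the set contains. GATA and TATA motifs, whose factors are not in the set, were searched as well. No motif of the helix-loop-helix factors or of Prox1 was searched. RefSeq windows of 300 bases on GRCm38.p6, from 250 before to 50 after a start site, were at hand for 18 of the 35 genes, 25 windows in all. The ETS motif CNGGAAG, searched on both strands, was found in 13 of the 25 (52.0%) and in 31.9% of 32851 windows of all genes, and 11 of the 18 genes had it. The SOX motif AACAAT was in 12.0% against 10.7% of all windows, the GATA motif AGATAA in 12.0% against 11.2% and TATAAA in 12.0% against 13.6%. The member windows had a median GC content of 58.3%, against 52.7%. A match is a description of letters, not a site of binding.

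The 250 bases before the start are given for Tek, for Lyl1, the gene with no count in replicate 1, and for the first window of Tal1, its pair, because each holds a match to a different one of these motifs. All are on the plus strand, at chr4:94739039-94739288, chr8:84701207-84701456 and chr4:115056176-115056425. Capitals mark the SOX match in Tek, the ETS match in Lyl1 and the GATA match in Tal1, each on the opposite strand.
Tek: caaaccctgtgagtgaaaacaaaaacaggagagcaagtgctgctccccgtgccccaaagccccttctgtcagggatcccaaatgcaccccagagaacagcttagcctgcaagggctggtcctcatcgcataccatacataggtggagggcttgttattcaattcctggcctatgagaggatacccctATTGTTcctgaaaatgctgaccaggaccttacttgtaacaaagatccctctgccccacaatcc
Lyl1: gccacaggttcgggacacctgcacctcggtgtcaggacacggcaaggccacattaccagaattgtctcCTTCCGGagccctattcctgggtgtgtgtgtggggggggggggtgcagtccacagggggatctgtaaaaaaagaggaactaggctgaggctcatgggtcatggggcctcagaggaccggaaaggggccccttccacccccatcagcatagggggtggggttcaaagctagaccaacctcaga
Tal1: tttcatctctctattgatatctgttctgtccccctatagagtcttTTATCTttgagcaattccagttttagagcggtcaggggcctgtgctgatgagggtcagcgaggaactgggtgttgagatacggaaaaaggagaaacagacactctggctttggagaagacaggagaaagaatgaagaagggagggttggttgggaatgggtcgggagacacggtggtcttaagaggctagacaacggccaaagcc

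Genes that work with the members were read from lists chosen by function. The counts of genes past 2-fold in these lists stand beside 39.1% higher and 27.2% lower among all genes, and with few genes a list nothing is read from them. In the angiopoietin and TIE list of 6 genes, 1 was at least 2-fold higher in replicate 2 and 2 were lower among 5 tested. The ligand Angpt1, made by cells around the vessel, had 33.1 nuclear TPM (1017 counts) in replicate 2 and 169 (1611 counts) in replicate 1, the protease Adam17 had 24.5 and 49.2 nuclear TPM in replicates 2 and 1, and Foxo1, a target of the pathway, had 8.18 and 19.9. Angpt4 had 3 counts in replicate 2 and 0 in replicate 1. Angpt1 was above Angpt2, its rival ligand at 2.94 nuclear TPM in replicate 2 and 3.60 in replicate 1, in both libraries.

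In the list of BMP9 and endoglin signalling, 5 of 11 tested genes were at least 2-fold higher in replicate 2 and 2 were lower. Bmp10, a ligand made by the right atrium, had 101 nuclear TPM (858 counts) in replicate 2 and 42.7 (113 counts) in replicate 1, and the target Id1 had 94.7 and 46.8 nuclear TPM in replicates 2 and 1. The receptor Bmpr2 went the other way, with 20.1 nuclear TPM in replicate 2 and 123 in replicate 1. Gdf2, the gene of BMP9, which the liver makes, had 10 counts in replicate 2 and 1 count in replicate 1.

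Markers of vessel beds were present too. The 12 capillary genes, of which all 12 reached 1 nuclear TPM in both libraries, summed to 2773 nuclear TPM in replicate 2 and 6551 in replicate 1, and 4 were at least 2-fold higher and 2 lower. Cd36, a fatty acid receptor of capillaries and cardiomyocytes, had 1133 nuclear TPM in replicate 2 and 5073 in replicate 1, and the fatty acid carrier Fabp4 had 981 and 876 in replicates 2 and 1. The sum of the 14 arterial genes was 147 nuclear TPM in replicate 2 and 133 in replicate 1, with 6 genes at least 2-fold higher and 1 lower, and that of the 8 venous genes was 112 and 266 in replicates 2 and 1, with 1 of 5 tested genes higher and 4 lower. Among arterial genes Efnb2 had 12.7 nuclear TPM in replicate 2 and 26.2 in replicate 1, while Gja4 had 13.0 and 0.277. Of the venous genes Emp1 had the highest mean level, at 55.6 nuclear TPM in replicate 2 and 183 in replicate 1. Cd36 and Fabp4 made up most of the capillary sum. Of the 6 endocardial genes Cytl1 had 52.9 nuclear TPM in replicate 2 and 23.3 in replicate 1 and Npr3 had 14.8 and 47.7.

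Flow-regulated and clotting-control genes, junction partners and other regulators added to the picture. Of 9 tested genes of flow and clotting control 2 were at least 2-fold higher and 1 was lower, Tfpi, an inhibitor of tissue factor, with 96.0 nuclear TPM in replicate 2 and 414 in replicate 1. Klf4 and Thbd lay within 2-fold by TMM-scaled counts. Of 11 tested junction partners 3 were higher and 3 lower, and the catenins that bind Cdh5, Ctnna1 (337 nuclear TPM in replicate 2 and 374 in replicate 1) and Ctnnb1 (309 and 384), are made by cardiomyocytes as well. Of the 8 tested vascular regulators outside the set 0 were higher and 3 lower, and Etv2, an ETS factor of the embryo, had 0 counts in both. In the list of further lymphatic genes 1 of 8 tested was higher and 2 were lower. Nrp2, a co-receptor of lymphatic growth signals, had 15.9 nuclear TPM in replicate 2 and 21.1 in replicate 1, Mmrn1 had 6.39 and 21.1, and Flt4, the receptor of lymphatic growth, had 7.85 (358 counts) and 1.52 (22 counts).

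**Figure D5:**
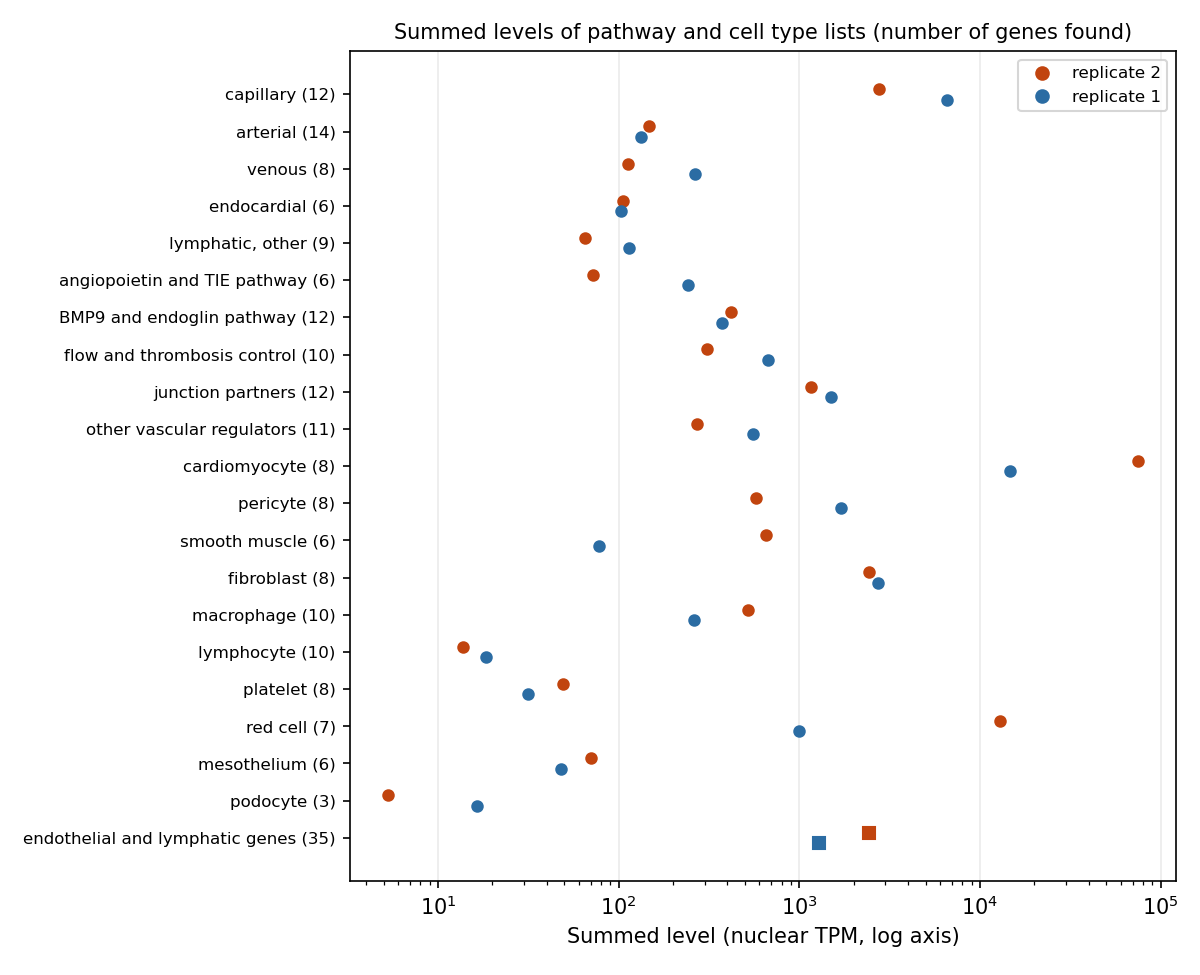
Summed level (nuclear TPM, log axis) of each pathway and cell type list in replicate 2 (orange, upper point) and replicate 1 (blue, lower point), with the number of genes found in parentheses and the 35 endothelial and lymphatic genes as squares. The list of lymphatic endothelial markers, which shares genes with that set, is not drawn. Cardiomyocyte genes are highest in both libraries, and red cell, smooth muscle and cardiomyocyte sums are the farthest apart.

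The markers of other cells that could lie in a piece of heart were measured beside the set. Of 8 pericyte markers 6 were at least 2-fold higher in replicate 2 and 1 was lower, with a median log2 ratio of 3.35. Their sum was 577 nuclear TPM in replicate 2 and 1696 in replicate 1, of which the lower one, Rgs5, held 322 and 1393. Smooth muscle markers summed to 650.2 in replicate 2 and 78.1 in replicate 1, and fibroblast markers to 2426 and 2737 in replicates 2 and 1. Red cell markers, which bear on Aqp1, summed to 12858 nuclear TPM in replicate 2 and 1001 in replicate 1. Lymphocyte markers summed to 13.7 and 18.4, and mesothelial markers to 70.3 and 47.7, in replicates 2 and 1. None of these lists was tested as a source of the members' differences.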

How the data were processed

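Poly(A) RNA of 1 mouse heart was measured in 2 technical libraries. The deposited tables give, for mm10 genes and transcripts (annotation M4, per the descriptions of the files), expected counts, TPM scaled to a fixed sum per library, and the percent of each gene's abundance per transcript. Which aligner and quantifier made them is not stated in those sources. Symbols, coordinates and sequences came from GENCODE M21 (GRCm38) and RefSeq. For ratios and intervals the expected counts deposited by the authors were rounded.

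Mitochondrial genes and nuclear copies (blastn 2.17.0, at least 95% identity over 90% of the length) were set aside and TPM rescaled. Ratios used TMM sizes (edgeR 4.0.16, R 4.3.3) with 0.5 counts added, over nuclear genes with at least 20 counts in both libraries together; all 35 members passed. With 1 library on each side no test was made. Intervals are 95% exact binomial or Poisson, and together with the floor of 3 counts they cover counting error only. Pair ratios are log2 of TPM with 0.1 added, with intervals from counts per effective length. Each gene's GC content averages its M21 transcripts, weighted by their TPM summed over both libraries; for Vwf and Erg a transcript of the deposited tables had no M21 match and did not enter it. Other steps ran in Python 3.11.15 (scipy 1.17.1, pandas 2.3.3, numpy 2.4.6), and the ratio step was tested on simulated data. Those data held counting error only, with no GC trend and a far smaller share of changed genes. The simulation therefore does not show how the scaling acts under the GC trend of these libraries. Members, pairs and lists were chosen with earlier results of these data known. All members are accounted for, with full values for the 2 highest of each role, both genes of each pair, members with no count and those of extreme ratio, and the 3 highest genes or those at 0 of a list where the list is described; Angpt2, Gdf2, Flt4, Gja4 and the coding examples Sox18, Tal1, Nos3 and Fli1 fall outside this rule and were chosen after their values were seen. Alternatives covered scaling, filters, added counts, the abundance estimate, thresholds, GC content and leaving out a library.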

Additional observations from a re-analysis of the deposited data

How the results depend on the processing

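The libraries are technical and from 1 animal, so no alternative speaks to other mice, and depth limits replicate 1 most: 26 of the 35 genes had at least 20 counts there, against 35 in replicate 2. With TPM as deposited, 21 members in place of 32 were detected in both libraries, and the mean summed level was 524 TPM in place of 1864 nuclear TPM, by construction of the scale. Leaving out each library gave 32 to 35 detected members and a summed level of 1286 to 2441 nuclear TPM, and the ratio between libraries has no value with 1 library left. With the GC trend of all genes removed, the median log2 ratio of the members was -0.0029, 8 members were at least 2-fold higher, the Spearman rho of levels was 0.68, and 11 members changed sign, 3 of them within 2-fold before (Tek to 0.06, Podxl to -0.57, Erg to -1.45) and 8 past it: Tie1 to -0.27, Robo4 to -0.94, Emcn to 0.11, Plvap to -1.13, Mmrn2 to -0.63, Nos3 to -0.20, Rgcc to -0.89 and Lyl1 to -0.41; the cause was not tested. At a 4-fold threshold 0 members were lower. DESeq2 size factors (1.42.0), upper quartile scaling, totals of nuclear counts, the count filters, the added counts and the posterior mean counts gave medians from 1.40 to 1.66, 20 or 21 members higher and 3 to 5 lower. They moved the median of all genes to values from 0.11 to 0.36. Pairs with the same order numbered 10 to 12. The leading transcript was the same for 14 of 22 genes by posterior means, and for 13 of the 19 with at least 20 counts in each library. No paired analysis was possible because there is 1 group with 2 libraries.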
